A study of Homo sapiens with 4 samples.

Results

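The genes of cholesterol and fatty acid synthesis were followed in OVCA420 ovarian cancer cells during exposure to TGF-β1. The 30 genes were chosen by symbol among the 33694 genes of the deposited matrices, and each symbol matched 1 row. They comprised 18 enzymes of sterol synthesis, 8 enzymes of fatty acid synthesis and 4 genes of their control and transport (*INSIG1*, *SREBF1*, *SREBF2* and *STARD4*). All 30 reached a mean of 5 CPM (counts scaled to a library total of 1000000) over the libraries, as did 9659 genes in all. The median of the mean levels was 49.1 CPM over the 30 genes and 24.4 CPM over the 9659.

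OVCA420 is an established line of ovarian carcinoma cells. Single-cell RNA-seq of its epithelial to mesenchymal transition was performed at 4 time points, with 1 library per time point. Ctrl cells were untreated, and the other cells received 10 ng/mL TGF-β1 for 1, 3 or 7 days (1-day, 3-day and 7-day), in the same growth medium with serum. The starts of treatment were staggered so that all time points were collected together. Factor and medium were replaced at intervals of 2 days, and the last passage lay at least 2 days before harvest.

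Cholesterol is built from acetyl-CoA through mevalonate, farnesyl diphosphate, squalene and lanosterol, and palmitate is built from the same acetyl-CoA before it is elongated and desaturated. Most of these genes are targets of the SREBP transcription factors, which *SREBF1* and *SREBF2* encode. SREBP precursors are kept in the endoplasmic reticulum by INSIG proteins when sterols are plentiful and are processed to their active form when sterols are scarce, and SREBPs act at promoters together with NF-Y, which binds CCAAT, and Sp1, which binds GC-rich boxes. SREBP-2 acts mainly on sterol genes and SREBP-1c mainly on fatty acid genes.

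Most of the promoters carried the CCAAT pentamer, which fewer promoters of other genes carried. RefSeq promoters of assembly GRCh38.p14 were matched by symbol for 26 of the 30 genes, and the 250 bases before each gene start were searched on both strands. CCAAT was found for 13 of 15 sterol enzymes, 3 of 4 control and transport genes and 4 of 7 fatty acid enzymes. It was found for 37.0% of all 27305 genes of the table and for 42.1% of the 7399 that passed the expression filter. The GGGCGG box stood before 25 of the 26 genes and before 76.8% of the expressed genes. The letters TCACNCCAC, a form of the sterol regulatory element, were found only before *SREBF2* among the 26 genes and before 1.19% of expressed genes. The letters TCACGTGA, an E-box that SREBPs also read, were found only before *INSIG1* and before 2.20% of expressed genes. A match is a string of letters in a fixed window and is not a measured binding site.

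Stretches of 7 of these promoters are shown because their genes cover the patterns described below, and they were chosen after the expression values were seen. *HMGCS1* (chr5:43313513-43313582, minus strand), *MVD* (chr16:88663162-88663265, minus strand) and *TM7SF2* (chr11:65111783-65111817, plus strand) belong to enzymes that were lower at 7-day. *MSMO1* (chr4:165327469-165327654, plus strand) was the sterol enzyme higher at every treated time point over all cells. At 7-day it lay at the 1.5-fold limit, and at 1-day it fell short of the limit in subsets of the cells described below. *PMVK* (chr1:154936720-154936799, minus strand) had no CCAAT, and its largest log2 ratio to Ctrl (0.21) was the smallest among the enzymes of the mevalonate steps. *INSIG1* (chr7:155297693-155297775, plus strand) and *SREBF2* (chr22:41832957-41833018, plus strand) belong to the control genes. The sequences run 5′ to 3′ in the direction of the gene and end before the gene as GENCODE release 44 draws it, which leaves 1 of the 2 CCAAT of *HMGCS1* and the E-box of *INSIG1* outside the stretch shown. Capitals mark CCAAT or its reverse complement ATTGG and, for *SREBF2*, also the sterol regulatory element.

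HMGCS1: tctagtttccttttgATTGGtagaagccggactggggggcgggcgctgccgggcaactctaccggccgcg
PMVK: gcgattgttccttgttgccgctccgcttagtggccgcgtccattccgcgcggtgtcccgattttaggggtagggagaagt
MVD: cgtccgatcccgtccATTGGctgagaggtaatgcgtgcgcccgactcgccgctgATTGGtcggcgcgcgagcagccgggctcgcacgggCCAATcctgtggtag
TM7SF2: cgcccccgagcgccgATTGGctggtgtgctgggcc
MSMO1: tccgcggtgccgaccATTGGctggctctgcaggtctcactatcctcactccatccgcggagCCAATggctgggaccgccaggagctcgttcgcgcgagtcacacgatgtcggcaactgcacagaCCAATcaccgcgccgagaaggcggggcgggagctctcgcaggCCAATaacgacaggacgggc
INSIG1: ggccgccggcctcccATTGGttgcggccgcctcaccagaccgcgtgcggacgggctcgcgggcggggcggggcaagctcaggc
SREBF2: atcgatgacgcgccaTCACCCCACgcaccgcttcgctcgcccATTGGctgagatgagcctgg

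The *MSMO1* stretch held 4 CCAAT and the *MVD* stretch held 3, whereas the *PMVK* stretch held none. Enzymes on either side of the 1.5-fold limit at 7-day thus carried the pentamer, and no relation between the motif and the change was tested.

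The matrices as read here broke off within a library, so the first 3170 of the 10710 listed cells were read (572 to 945 per library), and 3144 were retained. The retained cells held 25382817 to 32949874 UMIs per library, and the median depth per cell was 30270 UMIs in Ctrl, against 32393 at 1-day, 43553 at 3-day and 43382 at 7-day. Levels are UMIs of a gene summed over the cells of a library and scaled to CPM, so a change in the share of high cells and a change in every cell give the same sum. Each 3′ UMI stands for 1 molecule whatever its length. The keratins *KRT7*, *KRT8*, *KRT18* and *KRT19* and *EPCAM* were expressed in every library, and the 8 epithelial markers summed to 3850, 5601, 4482 and 4082 CPM in time order. *PAX8*, a marker of the ovarian cancer lineage, was below 1 CPM throughout, and *MUC16* was at 2.97 CPM in Ctrl and 0.12 to 0.42 CPM after treatment. Summed fibroblast, leukocyte and endothelial markers were at most 6.22 CPM, with *CD68* leading at 7-day and *CDH5* in Ctrl, and *COL3A1*, *MS4A1* and *CLDN5* were at 0 in every library. Of the cell barcodes, 23 occurred in more than 1 library.

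With 1 library per time point there was no test across samples, and no p-value was computed. Intervals are exact 95% intervals that cover counting error only. A gene was counted as higher or lower when its CPM differed by at least 1.5-fold and the interval of the log2 ratio left out 0. The 3 treated libraries were all compared with the same Ctrl library, so that a deviation of Ctrl would enter each of these comparisons.

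In the median, the sterol enzymes stayed near their Ctrl levels at 1-day and 3-day, with single enzymes on either side, and were lower at 7-day. Their summed level was 986 CPM in Ctrl, against 1119 at 1-day, 1085 at 3-day and 829 at 7-day. The median log2 ratio to Ctrl over the 18 enzymes was 0.03 at 1-day, 0.06 at 3-day and -0.39 at 7-day, where the median over all 9659 genes was -0.06, 0.04 and 0.10. At 1-day the interval lay above 0 for 6 of the 18 and below 0 for 7, against 3449 and 4161 of all 9659 genes. At 3-day these numbers were 9 and 7, against 4079 and 3384. The fatty acid enzymes had a median log2 ratio of -0.48 at 1-day, -0.23 at 3-day and -0.47 at 7-day. The interval lay below 0 for 5 of the 8 at each time point, against 43.1%, 35.0% and 30.9% of all genes. For 2, 3 and 3 of the 8 fatty acid enzymes it lay above 0, against 3449, 4079 and 4440 of all 9659 genes. Their summed level was 697, 696, 818 and 684 CPM in time order, with *SCD*, the most abundant of them, above its Ctrl level at each treated time point.

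At 1-day, 6 of the 30 genes were higher and 3 were lower than in Ctrl, where 16.6% of all genes were higher and 19.4% lower. The higher genes were the sterol enzymes *IDI1*, *SQLE* and *MSMO1*, the sterol carrier *STARD4*, and the desaturases *SCD* and *FADS2*. The lower genes were *LSS*, *FASN* and *ELOVL6*. At 3-day, 4 genes were higher and 4 lower, against 18.8% and 12.5% of all genes. The higher genes were *MSMO1*, *STARD4*, *SCD* and *FADS2*, and the lower genes were *TM7SF2*, *ACACA*, *ELOVL6* and *ACSS2*. At 7-day, 2 genes were higher and 9 lower, against 21.5% and 10.8% of all genes. *MSMO1* and *FADS2* were the higher genes, and the lower genes were *ACAT2*, *HMGCS1*, *MVK*, *MVD*, *TM7SF2*, *INSIG1*, *ACACA*, *ELOVL6* and *ACSS2*. The counts at 1-day and 3-day were thus near the shares over all genes in at least 1 direction, and the 9 of 30 lower at 7-day stood furthest from it.

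**Figure D1:**
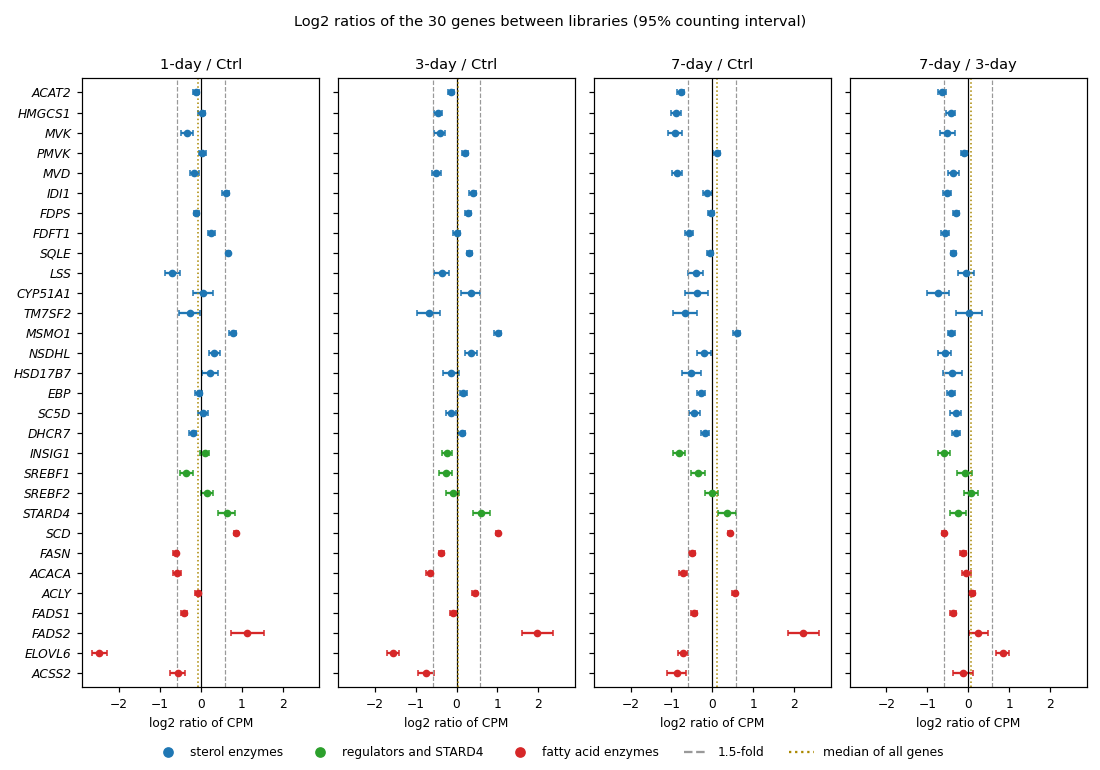
Log2 ratios of CPM between libraries for the 30 genes (blue, sterol enzymes; green, control and transport genes; red, fatty acid enzymes), with exact 95% counting intervals as bars, 1.5-fold limits dashed and the median of all 9659 genes dotted. Most sterol enzymes lie left of 0 in both 7-day panels, and *ELOVL6* and *FADS2* are the farthest genes on either side at 1-day and 3-day.

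Among the enzymes that make and use mevalonate, 4 of 7 were lower at 7-day, against 10.8% of all genes. *HMGCS1*, which encodes the cytosolic synthase of HMG-CoA, was at 70.1 CPM in Ctrl, against 71.0 at 1-day, 51.1 at 3-day and 37.9 at 7-day. Its 7-day log2 ratio was -0.89 (-0.998 to -0.78). *ACAT2*, the thiolase that supplies acetoacetyl-CoA, was at 95.1, 88.3, 86.8 and 55.5 CPM, so that most of its difference appeared after 3-day. *MVK*, mevalonate kinase, was at 30.3, 24.0, 22.8 and 16.0 CPM. *MVD*, the decarboxylase that makes isopentenyl diphosphate, was at 52.6, 47.3, 37.3 and 28.9 CPM. For these 4 enzymes the 7-day level lay between 1.71-fold and 1.89-fold below Ctrl, with log2 ratios of -0.78 to -0.92.

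The other enzymes of these steps were not lower at 7-day by this rule. *PMVK*, phosphomevalonate kinase, was at 72.9, 74.9, 84.3 and 78.6 CPM and had a 7-day log2 ratio of 0.11 (0.02 to 0.20). *FDPS*, farnesyl diphosphate synthase, was at 100.3, 93.4, 121 and 98.6 CPM. *IDI1*, the isomerase of isopentenyl diphosphate, was above the limit at 1-day only, with 59.1, 90.6, 78.0 and 54.3 CPM, and its 1-day log2 ratio of 0.62 was 0.48 in low-proliferation cells and 0.56 in the first part of the cells. *FDPS*, *IDI1*, *CYP51A1*, *HSD17B7* and *SCD* have named pseudogenes in the annotation (1 to 8 each), and reads shared with them cannot be told apart here.

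From squalene on, the enzymes split by time course. *SQLE*, squalene epoxidase, was at 138 CPM in Ctrl, against 218 at 1-day, 171 at 3-day and 133 at 7-day, so that it was high at 1-day alone by this rule (log2 ratio 0.67, 0.61 to 0.72). *MSMO1*, an oxidase that acts on methyl groups of the sterol ring, was at 52.9, 91.0, 106 and 79.7 CPM. Its log2 ratio to Ctrl was 0.78 at 1-day, 1.00 at 3-day and 0.59 at 7-day, the last of which lay just past the 1.5-fold limit. The 7-day value fell short of it, at 0.52 to 0.57, with size factors, without mitochondrial genes, in thinned cells, in the second part of the cells and without shared barcodes, and it was 0.31 in proliferating cells. At 1-day the value was 0.40 in low-proliferation cells and also fell short of the limit in proliferating cells. *NSDHL* and *HSD17B7*, which act with *MSMO1* on the same groups, did not pass the limit in the main values. In proliferating cells the 7-day log2 ratio of *HSD17B7* was -0.63. *NSDHL* was at 22.5, 28.4, 28.9 and 19.5 CPM and *HSD17B7* at 13.9, 16.3, 12.7 and 9.73 CPM.

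*LSS*, lanosterol synthase, was lower at 1-day only by this rule, with 19.7, 12.2, 15.3 and 14.9 CPM, and its 1-day log2 ratio of -0.69 fell short of the limit in thinned cells (-0.56) and in the first part of the cells (-0.48). *TM7SF2*, a reductase of the sterol ring, was at 8.80, 7.28, 5.48 and 5.55 CPM, and its log2 ratio was -0.68 (-0.97 to -0.40) at 3-day and -0.66 (-0.97 to -0.36) at 7-day. With a mean over cells it was -0.50 at both, and at 7-day it was -0.49 to -0.55 in thinned cells, in low-proliferation cells and in the first part of the cells. It overlaps *VPS51* on the same strand. *CYP51A1*, the lanosterol demethylase, was at 8.63, 9.04, 11.0 and 6.62 CPM. Like *EBP*, it overlaps protein-coding annotation without a gene name on its own strand. Neither *CYP51A1* nor the remaining 4 enzymes passed the limit against Ctrl at any time point in the main values. Some 7-day log2 ratios lay past 1.5-fold in subsets of the cells. These were *FDFT1* (-0.71) and *SC5D* (-0.62) in proliferating cells, *EBP* (-0.67) in low-proliferation cells and *CYP51A1* (-0.63) in the second part of the cells. *FDFT1*, squalene synthase, was at 72.1, 86.4, 72.2 and 48.8 CPM and lay closest to the limit at 7-day, at -0.56. *EBP*, *SC5D* and *DHCR7*, which finish the sterol nucleus, had 7-day log2 ratios of -0.27, -0.44 and -0.17.

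**Figure D2:**
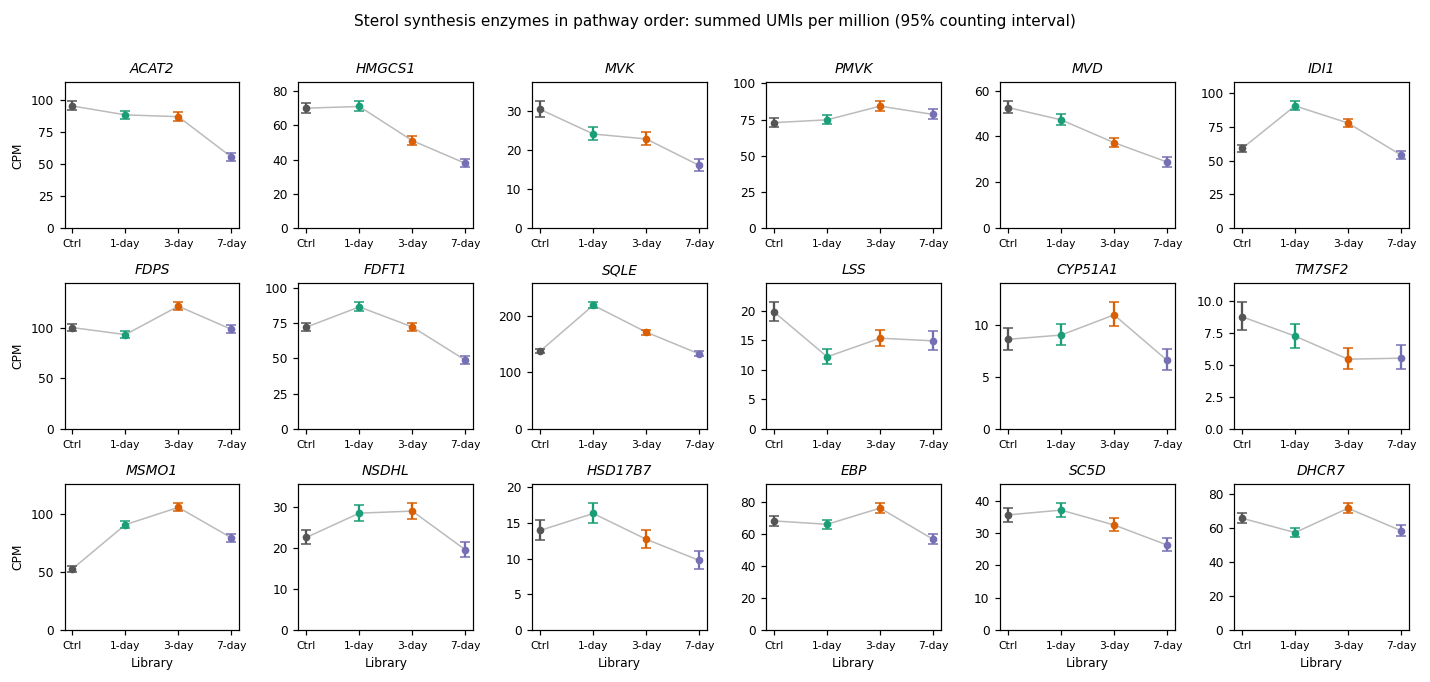
Level of each of the 18 sterol enzymes (CPM, axis from 0) in the Ctrl, 1-day, 3-day and 7-day libraries, in pathway order, with exact Poisson 95% intervals as bars. The 7-day point is the lowest of the 4 for 12 enzymes and the highest for none, against 15.9% and 34.7% of all genes.

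The step from 3-day to 7-day was the most uniform of the time course for the sterol enzymes. The 7-day level was the lowest of the 4 libraries for 12 of the 18 enzymes, as it was for 15.9% of all genes. It was the highest for 0 of 18, against 34.7% of all genes. Between 3-day and 7-day the interval lay below 0 for 16 of the 18 enzymes, against 21.7% of all genes. The exceptions were *LSS* at -0.04 (-0.24 to 0.15) and *TM7SF2* at 0.02 (-0.31 to 0.35). The median log2 ratio of this step was -0.40 for the sterol enzymes, -0.09 for the fatty acid enzymes and 0.06 for all genes. For the sterol enzymes it was -0.21 in cells with few UMIs of proliferation genes. The differences were small for each enzyme. By the 1.5-fold rule *ACAT2* (-0.65) and *CYP51A1* (-0.73) were lower and *ELOVL6* was higher, 2 and 1 of the 30 genes, against 2.88% and 4.76% of all genes. The count lower depended on the scaling and the cells used, since several enzymes lay close to the limit. It was 8 with median-of-ratios size factors, where 3.92% of all genes were lower. It was 6 in proliferating cells, and 5 and 4 in the second and first part of the cells in file order. It was 4 without the marked doublets or with a mean over cells, and 1 in thinned cells. The shares of all genes in these other settings are not given here. Against Ctrl, the 7-day interval lay below 0 for 14 of the 18 enzymes and for 30.9% of all genes. Intervals of counts that leave out 0 say nothing about the spread between cultures, which 1 library per time point does not measure.

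The step from 1-day to 3-day differed from it. No sterol enzyme passed 1.5-fold in either direction. *FADS2* and *ELOVL6* were higher, 2 of the 30 genes against 14.0% of all genes, and 0 were lower against 6.49%. The interval lay above 0 for 6 of the 8 fatty acid enzymes and for 46.8% of all genes.

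Of the 3 genes that control the pathway, *INSIG1* was the one that passed the limit. *INSIG1*, whose product holds SREBP precursors back and which is itself a SREBP target, was at 38.9 CPM in Ctrl, against 41.7 at 1-day, 33.4 at 3-day and 22.3 at 7-day, with a 7-day log2 ratio of -0.80 (-0.95 to -0.66). *SREBF2* was at 21.8, 24.3, 20.4 and 21.5 CPM and its 7-day interval held 0 (-0.19 to 0.15). *SREBF1* was at 22.7, 17.8, 18.9 and 17.8 CPM, and its 7-day log2 ratio was -0.35 (-0.52 to -0.17). RNA levels of these genes do not measure the processed protein. *STARD4*, which carries cholesterol between membranes, was at 10.7, 16.6, 16.3 and 13.7 CPM. Over all cells it was above 1.5-fold at 1-day and 3-day, with log2 ratios of 0.64 and 0.61. In proliferating cells these were 0.06 and 0.31, short of the limit. The 1-day ratio was 0.57 in the first part of the cells, and the 3-day ratio was 0.58 without mitochondrial genes.

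Of the fatty acid enzymes, *ELOVL6* was furthest from Ctrl at 1-day, and *FADS2* at 3-day and 7-day. *ELOVL6*, the elongase that extends palmitate to stearate (chr4:110045846-110199199, minus strand), was at 47.9 CPM in Ctrl, against 8.59 at 1-day, 16.3 at 3-day and 29.2 at 7-day. It was thus 5.57-fold lower at 1-day, 2.94-fold lower at 3-day and 1.64-fold lower at 7-day. The log2 ratio was -2.48 (-2.67 to -2.29) at 1-day. Each treated time point lay above the one before, by 0.92 (0.71 to 1.14) from 1-day to 3-day and by 0.84 (0.68 to 1.01) from 3-day to 7-day.

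Of the desaturases, *SCD* and *FADS2* were higher than in Ctrl. *SCD*, which makes oleate from stearate and was the most abundant of the 30 transcripts, was at 183 CPM in Ctrl, against 334 at 1-day, 367 at 3-day and 245 at 7-day. It was 1.83-fold above Ctrl at 1-day and 1.34-fold at 7-day. *FADS2*, the first desaturase of polyunsaturated fatty acids, rested on few UMIs, with 72 in Ctrl, against 174 at 1-day, 301 at 3-day and 283 at 7-day. Its level was 2.40, 5.28, 9.37 and 11.1 CPM, 4.64-fold higher at 7-day than in Ctrl (log2 ratio 2.22, 1.84 to 2.61). *FADS1*, the next desaturase of the same chain, was at 114, 85.8, 107 and 83.3 CPM, with log2 ratios of -0.41 at 1-day and -0.45 at 7-day that did not reach the limit. In low-proliferation cells its 7-day ratio was -0.80, past 1.5-fold. In the annotation *FADS2* (chr11:61792980-61867354, plus strand) spans *FADS1* (chr11:61799627-61829318, minus strand) and overlaps *FEN1* on its own strand.

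The enzymes that make palmitate were mostly lower. *ACACA*, acetyl-CoA carboxylase, was at 78.0, 52.1, 49.4 and 47.7 CPM, and it was past the limit at 3-day and 7-day and just inside it at 1-day (-0.58, -0.66 and -0.71). *FASN*, fatty acid synthase, was at 152, 99.2, 117 and 107 CPM and in the main values was past the limit at 1-day only (-0.61). The 1-day ratio was -0.53 with size factors, -0.56 in the first part of the cells and -0.39 in low-proliferation cells. At 7-day the ratio was -0.50 over all cells and -0.62, past 1.5-fold, in proliferating cells. *ACSS2*, which makes acetyl-CoA from acetate, was at 17.7, 12.0, 10.5 and 9.65 CPM, lowest at 7-day (-0.88). *ACLY*, which makes acetyl-CoA from citrate, went the other way with 103, 98.8, 140 and 150 CPM, and its 7-day log2 ratio of 0.54 (0.47 to 0.61) did not reach the limit. In low-proliferation cells that ratio was 0.75, past 1.5-fold.

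**Figure D3:**
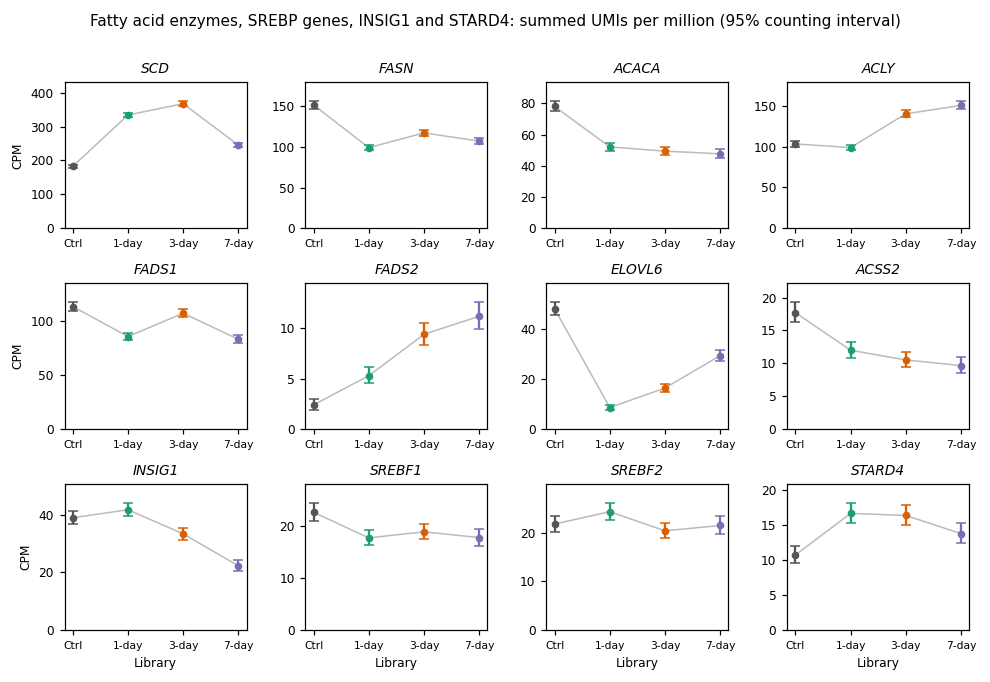
Level of the 8 fatty acid enzymes and the 4 control and transport genes (CPM, axis from 0) in the 4 libraries, with exact Poisson 95% intervals as bars. *ELOVL6* is at 8.59 CPM at 1-day and 29.2 CPM at 7-day, *SCD* is highest at 3-day, and *FADS2* climbs from 2.40 to 11.1 CPM.

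Cells within a library were then compared at equal depth, after each was thinned to 18000 UMIs. This left 844 Ctrl, 900 1-day, 677 3-day and 549 7-day cells, and 174 shallower cells were left out. At this depth *ELOVL6* was detected in 52.4% of Ctrl cells (48.9 to 55.8), 13.4% of 1-day cells (11.3 to 15.8), 23.0% of 3-day cells (19.9 to 26.4) and 40.8% of 7-day cells (36.7 to 45.0). Without thinning the shares were 69.2%, 23.9%, 46.9% and 66.1%. *FADS2* was detected in 3.91%, 8.67%, 16.4% and 18.6% of thinned cells and in 7.29%, 16.3%, 32.3% and 38.1% of unthinned cells. All cells are of 1 line, so no cell type that lacks these genes was at hand to set the level of free RNA, which was not tested.

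*SCD* was detected in 90.3% to 97.5% of thinned cells in every library, so that its levels differed in UMIs per cell rather than in the share of cells detected. The median was 3 UMIs per cell in Ctrl, against 5 at 1-day, 6 at 3-day and 4 at 7-day. Its variance over mean across cells was 2.08 in Ctrl, against 4.25 at 1-day, 3.77 at 3-day and 3.11 at 7-day. For *ELOVL6* the same ratio stayed between 1.05 and 1.29, where counting alone gives 1. Its mean was 0.15 to 0.84 UMIs per cell, against 3.27 to 6.71 for *SCD*. The ratio lies nearer to 1 at a low mean whatever the spread between cells. It therefore does not compare the spread of these genes, or of *SCD* between libraries with unlike means.

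**Figure D4:**
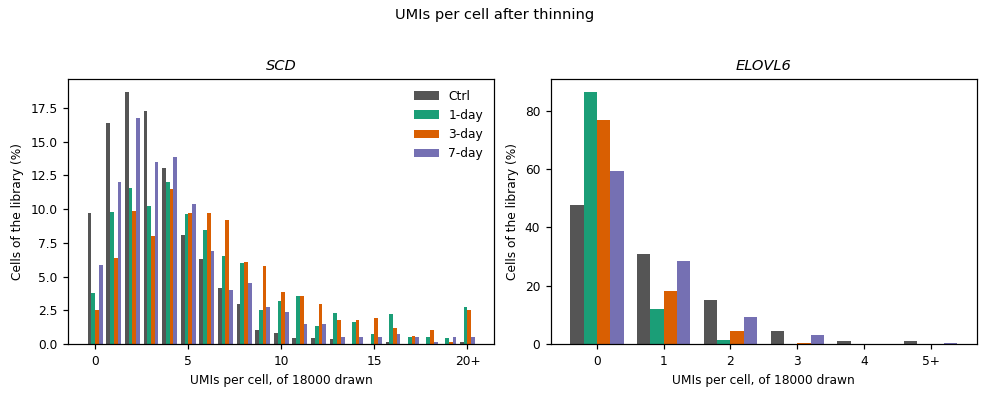
Share of cells (%) by number of *SCD* UMIs (left) and *ELOVL6* UMIs (right) after each cell was thinned to 18000 UMIs, with bars coloured by library and the last bar holding all higher counts. *SCD* counts spread to higher values at 1-day and 3-day, and cells without an *ELOVL6* UMI are most frequent at 1-day.

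The arms varied together among cells. Spearman's rho between the summed sterol and summed fatty acid enzyme UMIs of thinned cells was 0.35 in Ctrl, against 0.45 at 1-day, 0.41 at 3-day and 0.44 at 7-day. Between the 7 enzymes up to *FDPS* and the 11 from *FDFT1* on, rho was 0.35, 0.54, 0.53 and 0.36. *SCD* against the sterol enzymes gave 0.26, 0.36, 0.35 and 0.40. Sterol enzymes against the proliferation genes gave 0.07, -0.004, -0.009 and -0.15. Fatty acid enzymes against the proliferation genes gave 0.006, -0.16, -0.06 and -0.13. Counting error lowers rho more where UMIs are fewer, so rho is not compared between libraries. All these values are descriptions over the cells of 1 library, which share its preparation, and cells are not replicates.

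The libraries also differed in proliferation, and the values of several genes differed with it. The 12 proliferation genes (such as *MKI67* and *TOP2A*) summed to 1656 CPM in Ctrl, against 655 at 1-day, 1395 at 3-day and 1459 at 7-day. Cells with under 3 UMIs of these genes per 10000 made up 18% of the Ctrl library and 73.2%, 44.5% and 32.0% of the 1-day, 3-day and 7-day libraries. *ELOVL6* was low at 1-day in both classes, with 45.2 CPM in Ctrl and 8.91 at 1-day in low-proliferation cells and 48.4 and 7.77 CPM in proliferating cells. The step from 1-day to 3-day was 0.59 in low-proliferation cells and 1.24 in proliferating cells. The classes were furthest apart at 7-day, with 15.3 CPM in low-proliferation cells and 35.8 CPM in proliferating cells. The 7-day log2 ratio was thus -1.56 in the former and -0.44 in the latter, which did not reach the limit, as in thinned cells (-0.57). The step from 3-day to 7-day was 0.19 in low-proliferation cells and 0.96 in proliferating cells.

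*HMGCS1* at 7-day had a log2 ratio of -0.48 in low-proliferation cells, short of the 1.5-fold limit, and of -1.20 in proliferating cells. *INSIG1* had -0.68 and -1.01. *MSMO1* at 1-day was 0.40 in low-proliferation cells and 0.54 in proliferating cells, both short of the 1.5-fold limit and of the 0.78 over all cells. *SCD* at 7-day was 0.76 in low-proliferation cells and 0.17 in proliferating cells, and at 1-day it was 0.86 and 0.54. *STARD4* at 1-day was 0.79 in low-proliferation and 0.06 in proliferating cells, and at 3-day 0.93 and 0.31. *PMVK* at 7-day was -0.16 and 0.22, and *SREBF1* was 0.11 and -0.42. The median 7-day ratio over the 18 sterol enzymes was -0.37 in low-proliferation and -0.43 in proliferating cells. All genes had medians of 0.09 and 0.13 in these classes. From 3-day to 7-day the interval lay below 0 for 12 of 18 sterol enzymes in the former and 15 of 18 in the latter, against 21.3% and 19.5% of all genes.

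**Figure D5:**
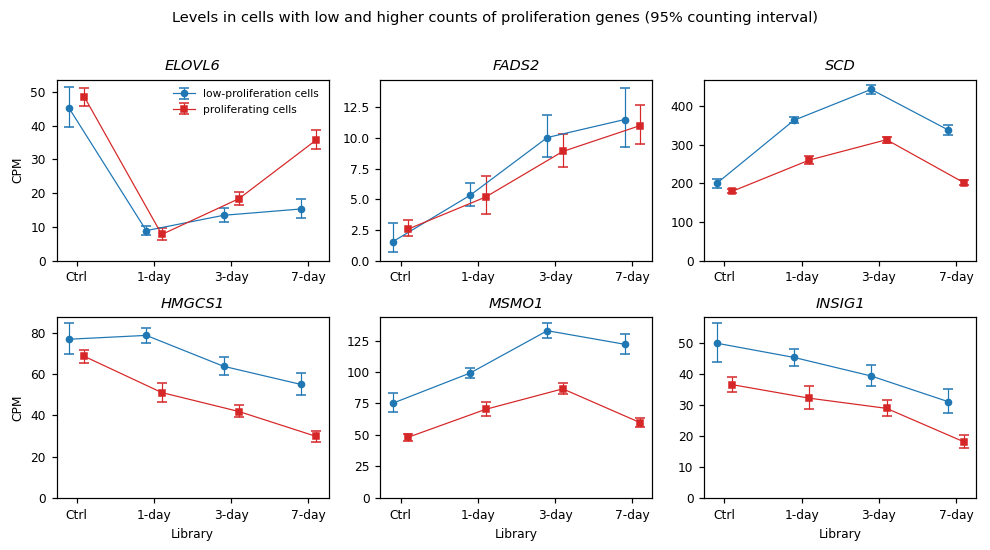
Levels (CPM, axis from 0) of 6 genes in low-proliferation cells (blue circles) and proliferating cells (red squares) of each library, with exact Poisson 95% intervals as bars. *ELOVL6* is at 8.91 and 7.77 CPM in the classes at 1-day and at 15.3 and 35.8 CPM at 7-day, while *HMGCS1*, *MSMO1* and *INSIG1* are higher in low-proliferation cells in every library.

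Genes around the pathway were counted from wider lists by the same rule, over the list genes reported here. Of the genes of sterol uptake, efflux, storage and transport, 13 passed the expression filter. At 7-day 6 of these were higher and 3 lower, against 21.5% and 10.8% of all genes. The median log2 ratio over the 14 list genes, with the 1 below the filter included, was 0.37 where all genes past the filter had 0.10. *ABCA1*, the cholesterol exporter, was at 6.27, 5.64, 16.7 and 28.2 CPM, and *NPC1* and *NPC2*, which move cholesterol out of lysosomes, were at 6.53 and 92.4 CPM in Ctrl and 19.1 and 241.9 CPM at 7-day. *STARD3*, a sterol carrier of late endosomes, *ORMDL3*, which restrains sphingolipid rather than sterol synthesis, and *NR1H2*, the liver X receptor β, were the others that were higher, with 7-day log2 ratios of 0.92, 1.67 and 0.63. *SCARB1*, a receptor for high-density lipoprotein, *SOAT1*, which esterifies cholesterol, and *LIPA*, the lysosomal lipase, were lower at -1.01, -0.88 and -0.71. *VLDLR* and *MYLIP* were lower at 1-day, at -1.35 and -1.68, and *MYLIP* also at 3-day (-0.70).

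Of 16 other fatty acid genes that passed the filter, 4 were higher and 1 lower at 7-day, near the 21.5% and 10.8% of all genes. The median log2 ratio was 0.01, against 0.10 for all genes past the filter. This list median also includes genes below the filter that had a finite ratio. *FADS3*, a relative of *FADS2*, was at 20.8, 119, 217 and 166 CPM, and *SCD5*, a relative of *SCD*, was at 6.53, 9.38, 18.4 and 31.7 CPM. *ACSL4*, which activates arachidonate, was at 5.60, 12.7, 25.5 and 27.1 CPM, and *ELOVL1* was at 41.1 CPM in Ctrl and 77.1 at 7-day. *ME1*, the malic enzyme that supplies NADPH, was the lower gene, with 137, 118, 90.5 and 56.4 CPM. *ELOVL5* was past the limit at 3-day (0.62), *HACD2* was higher at 1-day (0.72), and *ELOVL7* and *MID1IP1* were lower at 1-day (-0.81 and -1.49). Of 6 genes of the SREBP machinery, *INSIG2* was higher at 7-day (0.71), *UBE2G2* was lower at 1-day (-0.71), and 4 passed the limit against Ctrl at no time point. None of the 3 sterol and isoprenoid enzymes outside the 18 that passed the filter reached the limit against Ctrl.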

How the data were processed

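OVCA420 cells were profiled by 10x Genomics 3′ single-cell RNA-seq in 4 libraries (Ctrl, 1-day, 3-day and 7-day). The authors deposited raw UMI counts for every gene in every cell, made with Cell Ranger 2.0.1 on GRCh38 and not normalized. The matrices read here end within a cell. That cell was dropped, and the cells read are the first in barcode order. Cells with over 200 genes and at most 20% mitochondrial UMIs were retained, which removed 26 cells. Scrublet (scanpy 1.11.5) marked 32 cells (1.02%) as doublets, and these were retained in the main values. UMIs were summed per library and scaled to CPM. Poisson, conditional log2 ratio and binomial intervals were exact (95%). Genes with a mean of 5 CPM or more (9659) gave the shares over all genes.

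The groups come from the labels. All 30 genes are named, with genes of the wider lists named when past 1.5-fold at any time point. The genes and lists were chosen with earlier results of these data known. Of the wider lists, 4 genes are not reported here. Cells were thinned without replacement to 18000 UMIs. The computation of intervals and calls was checked on simulated counts with known ratios. These were drawn with counting error alone, as the intervals assume, so they say nothing about the spread between cells or cultures. Gene positions came from GENCODE release 44 and promoters from RefSeq. Alternatives changed the scaling, the cell filters, the doublets, the depth, the cells used and the fold limit. Tools were Python 3.11.15, numpy 2.4.6, scipy 1.17.1 and pandas 2.3.3.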

Additional observations from a re-analysis of the deposited data

How the results depend on the processing

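No paired analysis was possible because each time point had 1 library and the labels give no replicate numbers. No value past the 1.5-fold limit changed sign under the alternatives. The median ratio of the sterol enzymes at 1-day was 0.18 in proliferating cells, and that of the fatty acid enzymes was -0.16 and -0.29 at 3-day in the first and second part of the cells in file order, -0.15 at 3-day in proliferating cells and -0.37 at 7-day in proliferating cells. Under a 2-fold limit the genes higher were 1 at 1-day and 1 at 7-day, and the genes lower were 1 at 1-day, 1 at 3-day and 0 at 7-day. At 3-day *MSMO1*, *SCD* and *FADS2* stayed higher under this limit, at 2.00-fold, 2.01-fold and 3.90-fold of Ctrl, so the first 2 lay just past it. The shares of all genes at 2-fold are not given here, so the 2-fold counts are not read as a result about the 30 genes. In proliferating cells, a setting added after the data were seen, 3 genes were higher and 5 lower at 1-day and 1 was higher at 7-day. In low-proliferation cells 5 genes were higher at 7-day, *MSMO1*, *STARD4*, *SCD*, *ACLY* and *FADS2*. In the first part of the cells 1 gene was lower at 1-day. Over all cells, 16.6% of all genes were higher and 19.4% lower at 1-day, and 21.5% were higher at 7-day. The shares within these subsets of cells are not given here, so their counts are not read as a result about the 30 genes. The count higher at 7-day was 1, by loss of *MSMO1*, with median-of-ratios size factors, without mitochondrial genes in the total, in the second part of the cells, and without the shared barcodes (added after the data were seen). The count lower at 7-day was 10 with size factors and without mitochondrial genes, against 12.5% and 11.8% of all genes. Spearman's rho between the arms in unthinned cells was 0.42 in Ctrl, against 0.54 at 1-day, 0.50 at 3-day and 0.55 at 7-day. The cause of these differences was not tested. Size factors moved all log2 ratios by 0.08, 0.02 and -0.06 at 1-day, 3-day and 7-day. The number of sterol enzymes with an interval below 0 from 3-day to 7-day was 13 in thinned cells. Thinning leaves fewer UMIs and wider intervals, and the share of all genes in thinned cells is not given here. This count is therefore not compared with that over all cells. Low counts limit *FADS2*, *TM7SF2* and *CYP51A1* most.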
